A study of Dendrobium nobile with 12 samples.

Results

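The shoot-only models are gene models of the orchid Dendrobium nobile that were transcribed in leaf and stem and nearly silent in root, bud, petal and labellum. They were chosen by level alone, with at least 5 FPKM (reads scaled by coding length and by library total) in each of the 4 leaf and stem libraries and under 1 FPKM in each of the 8 other libraries. The rule held for 25 of 31672 models. Thresholds of the same size met in a single tissue gave 10 models for leaf alone and 27 for stem alone.

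RNA-seq libraries were made from 6 tissues, 2 for each: leaf, stem and root of 1-year seedlings, then bud, petal and the lip or labellum of the flower, for which seedlings were 2 years old. All shared a single labelled genotype and greenhouse cultivation, and no treatment was given beyond the choice of tissue. The labels give D. nobile as the organism, and the series' design text names D. officinale. No label ties the libraries of a tissue to separate plants, so p-values measure the spread between libraries, which may be technical, and seedling age cannot be told apart from floral against vegetative tissue.

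In a Dendrobium plant the shoot is a jointed, fleshy stem that stores water and carbohydrate and bears the leaves, which are the main site of photosynthesis. Stem and leaf share tissues that roots and petals have little of or lack, such as a leafy-shoot epidermis with stomata. The stem holds more vascular and supporting tissue. The stem of this species is also the organ known for picrotoxane-type sesquiterpenoid alkaloids such as dendrobine. The tables give no product for any of the 25 models, so none is assigned to these functions, and the tissues were not checked against marker genes.

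Total counts ran from 27175842 to 32040196 in the leaf, stem and floral libraries, and were 14165136 and 5289212 in root replicates 1 and 2. A floor of 3 counts in root replicate 2 equals 1 FPKM for a model of 567 bp. Of the 8 shoot-only models shorter than that, 5 had 0 counts in root replicate 2, with floors of 1.12 to 2.06 FPKM, so levels between 1 FPKM and the floor of each were not detectable in that library. Floors and intervals cover counting error only.

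The 25 models together made up a small part of the shoot messenger RNA. Chosen by level as they were, they took 0.0892% and 0.0913% of counts in the leaf libraries, against 0.0564% and 0.0571% in the stem libraries. In the other tissues their share was between 0.00024% in petal replicate 1 and 0.000619% in bud replicate 1. Summed over the models, levels were 812 ± 15.8 FPKM in leaf and 505 ± 14.4 FPKM in stem (mean ± SD, n = 2 each). The leaf and stem sums do not overlap, and leaf is the higher. In bulk tissue, more cells of a type and more RNA per cell cannot be told apart.

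**Figure D1:**
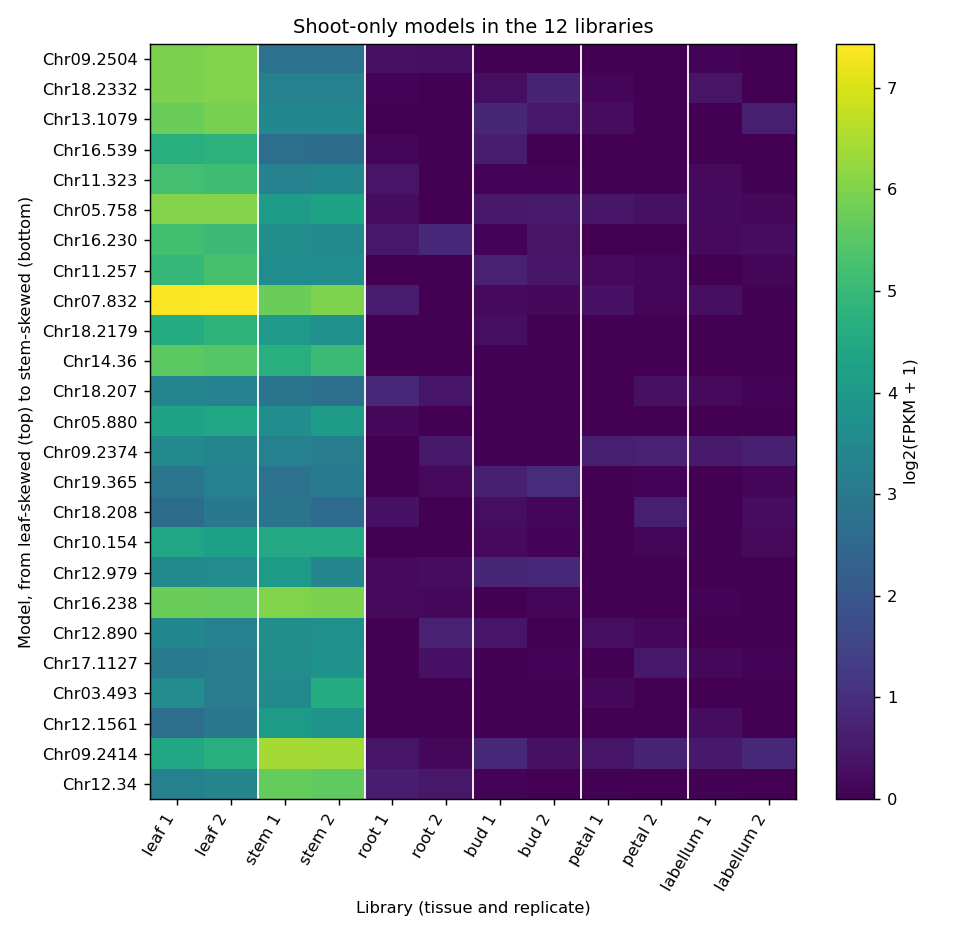
Levels of the 25 shoot-only models (rows, ordered from leaf-skewed to stem-skewed) in the 12 libraries (columns), as log2(FPKM + 1). Row names leave out the start and end that the identifiers share. The 4 leaf and stem columns are at or above 5 FPKM by the rule, and the 8 other columns are under 1 FPKM.

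Most of the 25 stood at a moderate level in the shoot. Their median was 22.6 FPKM in leaf and 12.3 FPKM in stem, against 27.5 FPKM in leaf and 29.1 FPKM in stem for the 11537 models that reached 5 FPKM in all 4 leaf and stem libraries. Of the 25, 10 lay above that wider median in leaf and 4 did so in stem. Over leaf and stem together, 12 had a mean of at least 20 FPKM, 8 lay between 10 and 20 FPKM and 5 were under 10 FPKM. Since the rule chose these levels, they are a description.

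The most abundant was evm.model.Chr07.832-gene (chromosome 7, coding length 1059 bp). It stood at 167 and 171 FPKM in the leaf libraries, against 53.3 and 63.3 FPKM in the stem libraries. It ranked 946th of all models in leaf and 3158th in stem. Its counts elsewhere were few, from 0 in root replicate 2 to 9 in petal replicate 1, and its highest level there was 0.467 FPKM in root replicate 1.

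Next came evm.model.Chr16.238-gene (chromosome 16, 1494 bp), the most abundant model with a near-even balance. It stood at 53.3 and 50.8 FPKM in leaf, against 64.0 and 61.6 FPKM in stem. No other member kept a wider gap, apart from a model with 0 counts elsewhere: its lowest shoot value was 358 times its highest value in the 8 other libraries, which was 0.142 FPKM.

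The only model with no count outside the shoot was evm.model.Chr14.36-gene (chromosome 14, 276 bp), the shortest of the 25. It stood at 45.9 and 43.4 FPKM in leaf, against 24.5 and 32.7 FPKM in stem, and had 0 counts in all 8 other libraries. Pooled over libraries it was at least 667-fold higher in leaf and stem, against a floor of 3 counts over the 8 other libraries. In root replicate 2 alone, however, 3 counts of so short a model would be 2.06 FPKM.

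A further 4 models had 1 or 2 counts in all of the 8 other libraries together. For evm.model.Chr05.880-gene (645 bp) this was 1 count, in root replicate 1, and the ratio of pooled leaf and stem to pooled other FPKM was 2110 with a 95% exact Poisson interval of 379 to 83324. For evm.model.Chr03.493-gene (279 bp) it was 1 count, in petal replicate 1, with a ratio of 703 and an interval of 126 to 27775. The 2 counts of evm.model.Chr18.2179-gene (366 bp) were in bud replicate 1, and its ratio was 707 with an interval of 196 to 5840. The 2 counts of evm.model.Chr12.1561-gene (357 bp) were in labellum replicate 1, and its ratio was 349 with an interval of 96.7 to 2880. With 1 or 2 counts behind each ratio, the intervals are wide.

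Across the 25 models and 8 other libraries, 91 of 200 values (45.5%) were 0 counts, 55 were 1 to 3 counts and 19 were above 0.5 FPKM. Counts outside the shoot were not tied to one tissue. At least 1 count appeared for 19 models in bud, for 18 in root, for 18 in labellum and for 17 in petal. The highest of the 8 other values was in root for 9 models, in bud for 8, in petal for 4 and in labellum for 3. Root libraries were shallower, so fewer counts stand behind the same FPKM there. In 6 models the residual counts were in floral libraries and not in root. In 1 model they were in root and not in floral libraries.

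Residual levels had a shape of their own in some models. For evm.model.Chr12.979-gene (981 bp) they were 0.747 and 0.803 FPKM in bud, on 20 and 24 counts. In root they were 0.144 and 0.193 FPKM, on 2 and 1 counts, and all 4 petal and labellum libraries had 0 counts. For evm.model.Chr12.34-gene (1419 bp) root was the highest, at 0.498 and 0.400 FPKM on 10 and 3 counts. Its 6 floral libraries were at 0 to 0.0516 FPKM. In contrast, evm.model.Chr09.2374-gene (474 bp) was at 0.547 and 0.595 FPKM in petal, on 8 counts each. In labellum it was at 0.439 and 0.559 FPKM, on 6 and 8 counts, and both bud libraries had 0 counts. These values are under the threshold of the rule and are given without a test.

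Few models with 5 FPKM or more throughout the shoot were under 1 FPKM in any other tissue, and fewest in bud. Of the 11537 models at 5 FPKM or more in the 4 leaf and stem libraries, 281 were under 1 FPKM in both root libraries, 266 in both petal, 192 in both labellum and 134 in both bud libraries. All 6 floral libraries were under 1 FPKM for 69 models, of which 44 reached 1 FPKM in a root library and 25 are the shoot-only models. Among models kept out by a single tissue, root accounted for 44, bud for 24, labellum for 4 and petal for 2.

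**Figure D2:**
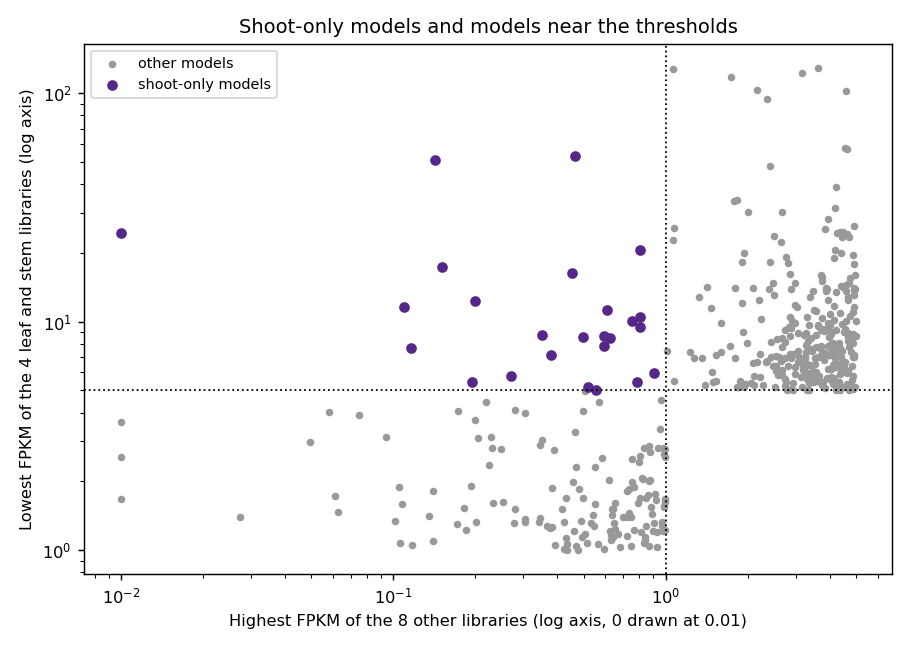
The lowest FPKM of the 4 leaf and stem libraries against the highest FPKM of the 8 other libraries, both on log axes, for shoot-only models and for other models that meet at least 1 of the thresholds (dotted lines, at 5 and 1 FPKM). Plotted models have a lowest shoot value above 1 FPKM and a highest other value under 5 FPKM. The shoot-only models fill the upper left. Other models lie across 1 of the lines, some close to it and others far from it.

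The thresholds cut through a continuous spread of values. Just inside the shoot minimum were evm.model.Chr18.208-gene, with a lowest value of 5.01 FPKM, and evm.model.Chr16.539-gene, with 5.15 FPKM, both in stem replicate 2. Just outside were evm.model.Chr01.710-gene, with 4.97 FPKM in leaf replicate 2, and evm.model.Chr04.685-gene, with 4.52 FPKM in stem replicate 2. At the other threshold, evm.model.Chr19.365-gene reached 0.908 FPKM in bud replicate 2 and evm.model.Chr09.2414-gene reached 0.808 FPKM in labellum replicate 2. Just outside it were evm.model.Chr09.1942-gene, at 1.01 FPKM in root replicate 2, and evm.model.Chr18.2333-gene, at 1.07 FPKM in root replicate 1. The size of the set therefore follows the thresholds.

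The balance of leaf to stem was not used by the rule, which sets the same minimum for both tissues. That minimum still limits it, since a model at a low level cannot be far from even with 5 FPKM in its lower tissue. In the 25 models leaf levels told little of stem levels: Spearman's rho between mean leaf and mean stem FPKM was 0.168 over the 25, against 0.853 over the 11537 models at the shoot minimum. Both are descriptions across genes from the same 4 libraries. The sets differ in size and in range of levels. The highest rank among the 25 was 946th in leaf and, for a different model, 2184th in stem. The part of these differences in rho was not tested. Leaf FPKM was above stem FPKM on average in 16 of the 25, and the leaf and stem libraries did not overlap in 21 (84%), 14 with leaf above and 7 with leaf below. Leaf and stem libraries did not overlap in 77.7% of all tested models and in 85% of those at the shoot minimum, so this count is near the background.

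**Figure D3:**
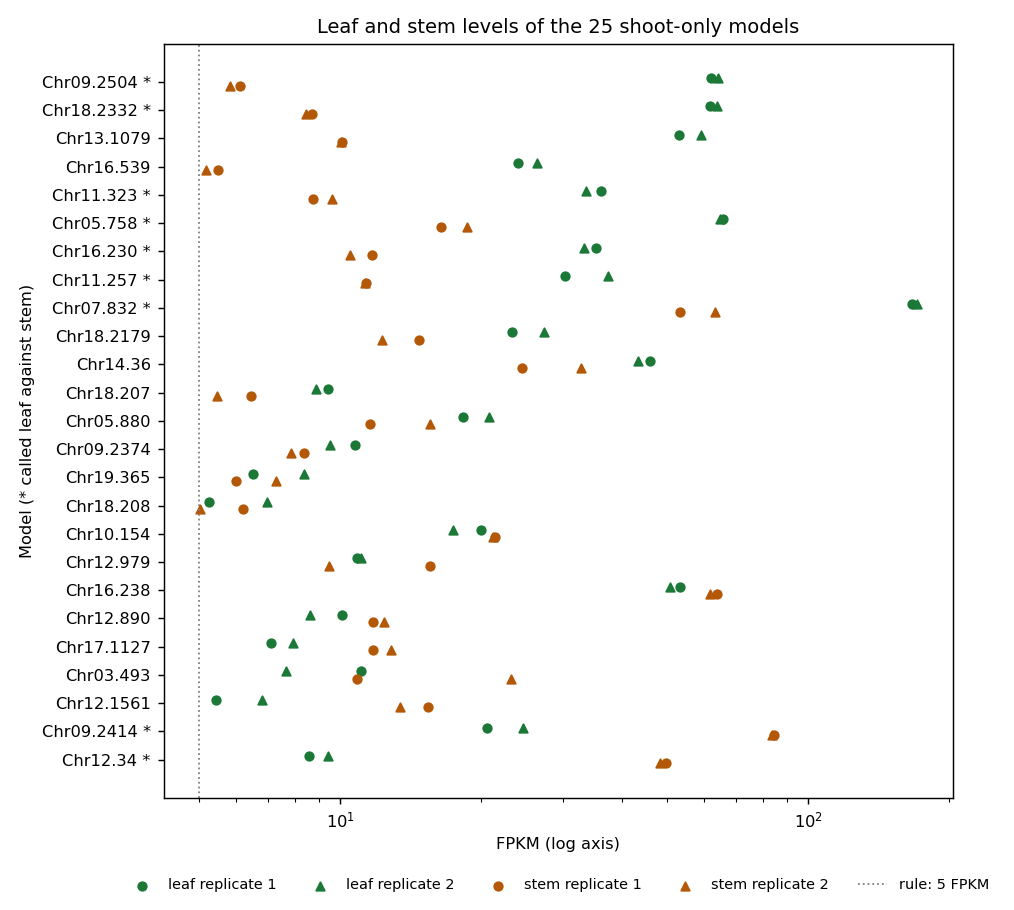
FPKM of each shoot-only model in the leaf libraries (green) and stem libraries (orange), on a log axis, with circles for replicate 1 and triangles for replicate 2. Models run from leaf-skewed at the top to stem-skewed at the bottom. Stars mark the 9 called models, and the dotted line is the minimum of 5 FPKM. Leaf and stem points overlap in 4 models.

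Leaf was higher than stem by the test in 7 of the 25 models and lower in 2. Of all 19123 tested models 8.27% were called higher and 7.01% lower in leaf, and of the 11537 at the shoot minimum 9.73% and 3.87%. The 7 higher are 28% of the set, and the 2 lower are 8%, close to the share among all tested models. The median leaf over stem log2 fold change was 0.72 over the 25 and 0.00 over all tested models; no test of this difference was made. Without any single leaf or stem library edgeR called 2 higher and 0 lower, with 6 to 8 higher and 2 lower at an unadjusted p under 0.05. With stem and leaf fitted alone it called 10 higher and 3 lower, and DESeq2 called 7 and 2 on all libraries. The 7 of DESeq2 are not the same models: they take in evm.model.Chr13.1079-gene and leave out evm.model.Chr18.2332-gene.

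The strongest skew to leaf was that of evm.model.Chr09.2504-gene (chromosome 9, 1566 bp). It stood at 61.9 and 64.3 FPKM in leaf, against 6.12 and 5.80 FPKM in stem. Leaf held 91.4% of its summed leaf and stem level, and the libraries are far apart. Its log2 fold change was 3.59 ± 0.37 (SE), with an adjusted p of 0.000296 (edgeR quasi-likelihood test, Benjamini-Hochberg adjustment), and it was called in all 20 alternatives. Elsewhere it was highest in root, at 0.270 and 0.241 FPKM.

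Next was evm.model.Chr18.2332-gene (chromosome 18, 1473 bp). It stood at 61.8 and 64.0 FPKM in leaf, against 8.71 and 8.44 FPKM in stem. Its leaf level thus nearly matched that of evm.model.Chr09.2504-gene, with a higher stem level. The log2 fold change was 3.06 ± 0.68 (SE) and the edgeR adjusted p 0.0111; the call was lost with DESeq2 and without any single leaf or stem library, with an adjusted p of up to 0.113.

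The longest of the 25, evm.model.Chr05.758-gene (chromosome 5, 1818 bp), stood at 65.8 and 64.9 FPKM in leaf, against 16.4 and 18.7 FPKM in stem. Its log2 fold change was 2.08 ± 0.28 (SE), with an edgeR adjusted p of 0.000829. It is the other model called in all 20 alternatives, and with evm.model.Chr09.2504-gene the only one called without each leaf and stem library in turn.

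The other called models with leaf higher had leaf to stem FPKM ratios of 2.90 to 3.80. In evm.model.Chr11.323-gene (1209 bp) levels were 36.0 and 33.6 FPKM in leaf, against 8.73 and 9.59 FPKM in stem, a log2 fold change of 2.11 ± 0.48 (SE). In evm.model.Chr16.230-gene (1644 bp) they were 35.2 and 33.2 FPKM in leaf, against 11.7 and 10.5 FPKM in stem, a log2 fold change of 1.81 ± 0.46. In evm.model.Chr11.257-gene (723 bp) they were 30.2 and 37.4 FPKM in leaf, against 11.3 FPKM in both stem libraries, a log2 fold change of 1.76 ± 0.51. In all 3 the leaf libraries lay well above the stem libraries. The abundant evm.model.Chr07.832-gene had a log2 fold change of 1.72 ± 0.40. Adjusted p values of these 4 were 0.0128, 0.0248, 0.0413 and 0.0145 in that order (edgeR, Benjamini-Hochberg adjustment), up to 0.126, 0.179, 0.267 and 0.215 over the alternatives, and each lost its call without any single leaf or stem library. The call of evm.model.Chr11.257-gene was also lost with total counts in place of TMM, with the replicate block (adjusted p 0.0678) and without either petal library. The other 3 also lost theirs with limma on log2(FPKM + 0.1).

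Stem held most of the signal in both of the models called lower in leaf. In evm.model.Chr12.34-gene (chromosome 12, 1419 bp) levels were 8.58 and 9.40 FPKM in leaf, against 49.7 and 48.3 FPKM in stem. Leaf held 15.5% of the summed level, the only share under 20% in the set, and the log2 fold change was -2.26 ± 0.42 (SE) with an edgeR adjusted p of 0.00462. In evm.model.Chr09.2414-gene (chromosome 9, 1680 bp) levels were 20.5 and 24.6 FPKM in leaf, against 84.6 and 83.7 FPKM in stem, the highest stem level of the 25. Its log2 fold change was -1.71 ± 0.44 with an edgeR adjusted p of 0.0216. This model also left the most counts outside the shoot, 169 in all and at least 1 in each of the 8 libraries. Both calls were lost without any single leaf or stem library.

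**Figure D4:**
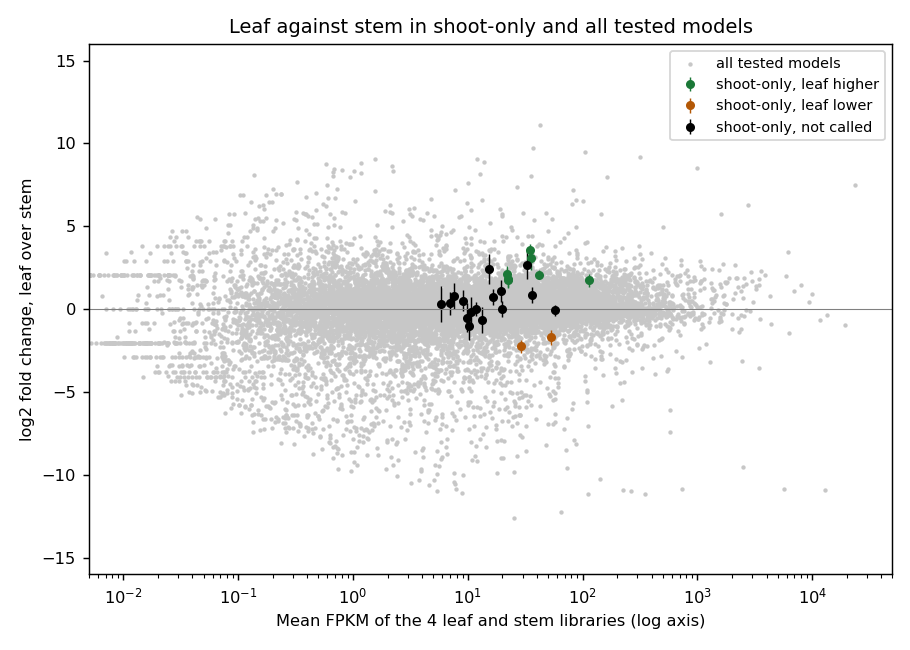
Leaf over stem log2 fold change (edgeR) against mean FPKM of the 4 leaf and stem libraries (log axis), for all tested models with a level in leaf or stem inside the axis (grey) and the shoot-only models (points with bars of 1 SE). Green marks 7 shoot-only models called higher in leaf, orange 2 called lower and black 16 not called. The called models all have a mean above 20 FPKM.

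Beyond the called models, 2 others had leaf levels well apart from stem. In evm.model.Chr13.1079-gene (681 bp) levels were 52.9 and 59.1 FPKM in leaf, against 10.1 FPKM in each stem library, a log2 fold change of 2.66 ± 0.84 (SE) and an edgeR adjusted p of 0.0572. In evm.model.Chr16.539-gene (921 bp) they were 24.03 and 26.3 FPKM in leaf, against 5.49 and 5.15 FPKM in stem, a log2 fold change of 2.43 ± 0.92 and an adjusted p of 0.114. Neither passed the test, which shares 1 estimate of spread among all tissues. Their replicates outside leaf and stem differ. The first model had 14 and 8 counts in bud, 4 and 0 in petal and 0 and 11 in labellum. The second had 13 and 0 in bud. The part of these counts in the result of the test was not tested. DESeq2 called the first (adjusted p 0.00596) and not the second (0.557). Over the 20 alternatives the first was called in 8 and the second in 4. With stem and leaf fitted alone in edgeR, their adjusted p values were 3.21e-16 and 1.71e-13, and over all alternatives they reached 0.271 and 0.557. Without bud replicate 1 or bud replicate 2 both were called. The common biological coefficient of variation was 0.0728 with stem and leaf fitted alone and 0.314 with all 12 libraries. The fit of stem and leaf alone has 2 residual degrees of freedom.

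Some models had near-even levels. Leaf held between 40% and 60% of the summed level in 8 of the 25 models, over 80% in 4 and under 20% in 1. The same shares were not counted over all tested models, so these counts describe the set alone. After evm.model.Chr16.238-gene (log2 fold change -0.08 ± 0.34, SE), the most abundant of the 8 was evm.model.Chr10.154-gene (1098 bp), at 19.95 and 17.4 FPKM in leaf, against 21.4 and 21.2 FPKM in stem. In evm.model.Chr05.880-gene leaf libraries were at 18.3 and 20.8 FPKM, against 11.6 and 15.6 FPKM in stem. For evm.model.Chr10.154-gene 1 SE was 0.47 on the log2 scale, so small differences between leaf and stem were not detectable in it.

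Of the 13 models with a mean under 20 FPKM, edgeR called 0, with 1 at an unadjusted p under 0.05; DESeq2 called 0 as well, and limma on log2(FPKM + 1) called 2. Leaf libraries lay above stem libraries in evm.model.Chr18.2179-gene (23.3 and 27.3 FPKM in leaf, against 14.8 and 12.3 FPKM in stem) and in evm.model.Chr09.2374-gene (10.7 and 9.49 FPKM in leaf, against 8.38 and 7.84 FPKM in stem). They lay below in evm.model.Chr12.1561-gene (5.42 and 6.79 FPKM in leaf, against 15.4 and 13.4 FPKM in stem), in evm.model.Chr17.1127-gene (7.13 and 7.93 FPKM in leaf, against 11.8 and 12.8 FPKM in stem) and in evm.model.Chr12.890-gene (10.1 and 8.63 FPKM in leaf, against 11.7 and 12.4 FPKM in stem). None of these 5 differences passed the test, with edgeR adjusted p values between 0.365 and 0.947. With stem and leaf fitted alone, evm.model.Chr18.2179-gene was called higher and evm.model.Chr12.1561-gene lower in leaf.

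Leaf and stem libraries overlapped in 4 models, and in 2 of them the stem replicates were far apart. In evm.model.Chr03.493-gene levels were 11.1 and 7.66 FPKM in leaf, against 10.9 and 23.2 FPKM in stem, a stem replicate ratio of 2.14. In evm.model.Chr12.979-gene they were 10.8 and 11.1 FPKM in leaf, against 15.6 and 9.45 FPKM in stem, a ratio of 1.65. No other member differed by over 1.5 times between stem replicates, and none did so between leaf replicates; 0.693% of the models at the shoot minimum exceeded that ratio in stem. The other overlapping models were evm.model.Chr19.365-gene (1338 bp), at 6.51 and 8.35 FPKM in leaf, against 5.99 and 7.29 FPKM in stem, and evm.model.Chr18.208-gene (507 bp), at 5.23 and 6.99 FPKM in leaf, against 6.19 and 5.01 FPKM in stem.

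Called models were mostly long and uncalled ones mostly short, with overlap in coding length, which the rule used only through FPKM. The median was 921 bp over the 25 models, against 1131 bp over the models at the shoot minimum, and 11 (44.0%) were under 700 bp, against 24.6%. The 7 models higher in leaf had lengths of 723 to 1818 bp and the 2 lower in leaf 1419 and 1680 bp, while the 16 not called had a median of 592.5 bp. Length moved with level in the set: Spearman's rho of length with mean shoot FPKM was 0.550 over the 25, as a description. Longer models also gather more counts at the same FPKM, and the part of length in the calls was not tested.

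The 25 models were spread over 13 of the 19 chromosomes. Chromosomes 12 and 18 held 4 each, chromosomes 9 and 16 held 3 each, and chromosomes 1, 2, 4, 6, 8, 15 held none. Among models at the shoot minimum, shoot-only models were 0.598% on chromosome 12 and 0.122% on chromosome 17. The numbers in the identifiers were taken as the order of models along a chromosome; this was not checked against positions in bases, which were not used here, and what follows on neighbours rests on it.

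Only evm.model.Chr18.207-gene (540 bp) and evm.model.Chr18.208-gene had consecutive numbers. The first stood at 9.42 and 8.86 FPKM in leaf, against 6.45 and 5.45 FPKM in stem, and the levels of the second are given above. They share a low level in all 4 shoot libraries. Their log2 fold changes were 0.80 ± 0.79 and 0.31 ± 1.08 (SE), neither past the test. The next closest members by number were evm.model.Chr16.230-gene and evm.model.Chr16.238-gene, 8 apart, the first skewed to leaf and the second near even. Reads shared by similar neighbouring models cannot be told apart here, since the counting rule is not given.

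Models numbered directly before and after a member were often shoot-biased as well. Of the 48 such neighbours that are not members, 15 (31.3%) had all 4 leaf and stem libraries above all 8 others, against 9.39% of all models. Of the same 48, 9 (18.8%) did so with at least 5 FPKM in each leaf and stem library, against 6.99% of all models. The 15 lay beside 11 different members. A model with 0 counts in all libraries cannot meet either condition. Such models were 29.3% of all models and 14% of the 50 neighbours with members included. These shares are descriptions, with no test.

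A neighbour near the threshold was evm.model.Chr18.2333-gene (1521 bp), next to evm.model.Chr18.2332-gene and kept out by 1.07 FPKM in root replicate 1. It stood at 107 and 108 FPKM in leaf, against 22.9 and 23.9 FPKM in stem, and had 0 counts in the petal and labellum libraries. Both models of this pair are high in leaf, lower in stem and near 0 elsewhere. Its log2 fold change was 2.39 ± 0.44 (SE), with an edgeR adjusted p of 0.00722. Beside evm.model.Chr11.257-gene, the short evm.model.Chr11.258-gene (207 bp) was at 36.5 and 42.9 FPKM in leaf, against 14.1 and 17.2 FPKM in stem, close to the levels of its neighbour; its difference did not pass the test (adjusted p 0.318).

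Around evm.model.Chr18.2179-gene both neighbours were also highest in the shoot, at very different levels. With the same coding length of 1209 bp, evm.model.Chr18.2178-gene stood at 728 and 744 FPKM in leaf, against 458 and 472 FPKM in stem, and evm.model.Chr18.2180-gene at 6.61 and 3.01 FPKM in leaf, against 2.54 and 1.40 FPKM in stem. The first was also present elsewhere, at up to 74.0 FPKM in bud replicate 2. The second was at 0 counts in 7 of the 8 other libraries, as was evm.model.Chr18.2179-gene.

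Both neighbours of evm.model.Chr16.539-gene had the opposite balance. On one side, the model evm.model.Chr16.540-gene has the same coding length of 921 bp and stood at 1.83 and 1.32 FPKM in leaf, against 57.2 and 56.8 FPKM in stem. Its level in stem was 36.2 times that in leaf, while the member next to it was 4.73 times higher in leaf than in stem. The log2 fold change of the neighbour was -4.99 ± 0.67 (SE), with an edgeR adjusted p of 0.000784. It was not a member, with 1.32 FPKM in leaf replicate 2 and 1.49 FPKM in petal replicate 2. On the other side, evm.model.Chr16.538-gene (930 bp) stood at 0 and 0.0343 FPKM in leaf, against 2.92 and 3.20 FPKM in stem.

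Fold changes are relative to the scaling. TMM moved the leaf over stem fold by 0.19 (log2) upward from that of the FPKM values, and with total counts in its place the median of all tested models was -0.18. Of all calls 54.1% were higher in leaf with TMM and 43.1% with total counts. Of the 25 models, 16 had a log2 fold change above 0 under both. With DESeq2 or its size factors 18 were above 0.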

How the data were processed

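The authors deposited raw read counts per gene model, whole numbers for 31672 models in 12 libraries, and FPKM values for the same models and libraries. From the deposited values, each FPKM above 0 was the count divided by 1 length per model and by the library total (100% of 224365 values, tolerance 0.01 bp). These lengths were multiples of 3 and are called coding lengths. The submitters' processing notes name GRCm38 and mm10, both mouse builds. Files, labels and notes leave unstated the gene models' own build, the aligner, the counting program and its strand setting.

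The 25 models were chosen on FPKM, so leaf and stem against the other tissues is described with no test. Leaf was tested against stem on the counts with edgeR 4.0.16 (quasi-likelihood test, filterByExpr, TMM scaling, R 4.3.3) in 1 model with a mean for each tissue over all 12 libraries, which left 6 residual degrees of freedom. Benjamini-Hochberg adjustment ran over the 19123 tested models, all 25 among them; a call needs an adjusted p under 0.05 and a change of at least 2-fold. SE is the size of the log2 fold change over the root of its F statistic, and is approximate. The fit was also run on simulated counts, with changes in leaf only and a single spread for all models. Those counts hold no models high in leaf and stem and near 0 elsewhere, so they do not test calls like those of the 25. DESeq2 1.42.0, limma 3.58.1 and other alternatives are in the closing section.

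The set, its thresholds and the lists were chosen with earlier results of these data known. Named by rule are the 10 most abundant members, up to 6 called members with the largest change in each direction (1 called member beyond these is given too), the 4 with a mean of at least 20 FPKM in leaf and stem and the smallest change, members with adjacent numbers, and the 2 models nearest to each threshold on each side. The remaining members complete the account, and neighbouring models other than members were named after their values were seen. Marker lists for cell types and organs could not be applied, since the tables pair no identifier with a gene product. Same-numbered stem and leaf libraries did not deviate together (Pearson's r = -0.0045 across genes), so no pairing was used. Over all pairs of tissues r ran from -0.300 for bud and labellum to 0.117 for bud and petal. Whether same-numbered libraries share a plant cannot be told from these values.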

Additional observations from a re-analysis of the deposited data

How the results depend on the processing

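The size of the set moved with its thresholds. The 25 models became 43 at a minimum of 3 FPKM in leaf and stem and 11 at 10 FPKM, and 13 with a maximum of 0.5 FPKM elsewhere and 61 with 2 FPKM. They numbered 25 to 33 without single libraries (33 without root replicate 2), 23 with FPKM rescaled by TMM factors and 37 by tissue means. Of the 7 and 2 calls, 4 and 1 were among the models at 10 FPKM or more, and 4 and 1 among those under 0.5 FPKM elsewhere. The 7 higher in leaf became 4 with limma on log2(FPKM + 0.1), and the median log2 fold change of 0.72 became 0.51 with limma on log2(FPKM + 1); the cause was not tested. Without single libraries the calls ran from 2 to 9 higher and from 0 to 2 lower among the 25, and from 798 to 1975 higher and 681 to 1663 lower among all models. The lowest values came without a leaf or stem library, and the highest counts of higher calls came without a bud library, an alternative added after seeing the data. Stem and leaf fitted alone gave 2428 higher and 2068 lower among all models, against 1581 and 1340 with all tissues. The direction of 23 of the 25 models held in all 20 alternatives. The exceptions were near 0: for evm.model.Chr10.154-gene and evm.model.Chr12.979-gene the log2 fold change was 0.012 and 0.011 with DESeq2 or its size factors, 0.0022 and 0.024 with the replicate block, and from -0.10 to 0.091 and from -0.30 to 0.42 without single libraries. Same-numbered stem and leaf libraries did not deviate together, and with the replicate block 6 and 2 of the 25 were called. The root depth and the 2 libraries per tissue limit what can be called absent or different.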

Other observations

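Models that missed the set by a single library numbered 26 at the maximum elsewhere: 5 FPKM or more in all 4 leaf and stem libraries and 1 FPKM or more in exactly 1 other library. That library was root replicate 2 for 8 models, bud replicate 2 for 7, bud replicate 1 for 6, root replicate 1 for 4 and labellum replicate 2 for 1. A further 7 models were under 1 FPKM in all 8 other libraries and reached 5 FPKM in exactly 3 of the 4 leaf and stem libraries. In all, 140 models were under 1 FPKM in the 8 other libraries and at 5 FPKM or more in at least 1 leaf or stem library. Among them, 37 reached it in both leaf libraries but not in both stem libraries, and 47 in both stem libraries but not in both leaf libraries.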
